A study of Mus musculus with 8 samples.

Results

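The E2F and retinoblastoma family was followed across 8 two-colour arrays through the probes that the platform's annotation assigns to Rb1, Rbl1, Rbl2, E2f1, E2f2, E2f3, E2f4, E2f5, E2f6 and Tfdp1. The rule found 9 probes among 21582, 1 probe for each of 9 genes of the 15094 that the annotation names, and none named for E2f2. All 9 had enough values to be tested. The RNA came from mouse cortical neurospheres prepared at gestational day 12.5, which are balls of neural progenitors and their progeny that grow in suspension. Control cultures never received ethanol. Exposed cultures grew for 5 days in proliferation medium with ethanol at 320 mg/dl. Both kinds of culture grew in serum-free medium with the growth factors FGF, EGF and LIF (20, 20 and 0.15 ng/ml), and both were then differentiated by taking away EGF and LIF, a step that lasted 3 days without ethanol for the exposed cultures. Each array carried control and exposed RNA together, with exposed RNA in Cy3 on replicates 1 to 4 and in Cy5 on replicates 5 to 8. No label ties an array to a culture of its own, so p-values measure the spread between arrays, which may be technical. The cultures are mixtures of cell types, and fewer cells of a type cannot be told apart from less RNA per cell.

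RB family proteins, the products of Rb1, Rbl1 and Rbl2, bind E2F transcription factors and hold genes for DNA synthesis and mitosis silent. Cyclin-dependent kinases phosphorylate the RB proteins when a cell commits to divide, and E2F with its partner DP then drives those genes. In the developing cortex this switch governs when a progenitor leaves the cell cycle, and Rb1 is known for its part in the last division of progenitors that become neurons.

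The deposited values are log2 ratios of the channels of an array, and which channel stands above the line is not given in the labels. Each value was centred on the median of its array, and each probe was described by 2 quantities on the log2 scale. The shared part is the mean over the dye orientations. The turning part is what is added in 1 orientation and subtracted in the other, positive where the ratio was higher with exposed RNA in Cy5. One of these parts carries the ethanol effect and the other the dye effect, and which is which cannot be told apart here. A sign therefore never says that exposed cells held more or less of a transcript. Between 75.4% and 87.1% of the probes of an array had a computable ratio, and 15345 probes, those with 3 or more values in both orientations, were tested together. Ratios give no level, so neither the presence of a cell type nor the order of the members' levels can be read from them. Of the fixed marker lists, 8 of 8 neural progenitor, 4 of 6 neuronal, 6 of 6 astrocyte, 5 of 7 oligodendrocyte lineage, 3 of 6 microglial and macrophage and 4 of 4 endothelial genes could be tested, and their median shared parts were 0.65, 0.19, -0.84, -0.48, -0.52 and -0.06. Whether the mix of cells had a part in the values below was not tested.

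In the shared part, the lowest values of the family were those of 2 pocket protein genes, Rb1 at -2.35 ± 0.70 (SE of the fit, n = 8 arrays) and Rbl2 at -1.34 ± 0.48 (n = 8), against positive values for E2f4 at 1.22 ± 0.73 (n = 7), E2f1 at 0.93 ± 0.44 (n = 8) and Rbl1 at 0.50 ± 0.40 (n = 8). By limma none of the 9 probes reached an adjusted p under 0.05 for the shared part, as 0.0% of all tested probes did, and the members' adjusted p ran from 0.231 to 0.776. At an unadjusted p under 0.05, limma picked out 2 members, Rb1 and Rbl2, or 22.2% of the family, against 13.9% of all tested probes. Both were negative, as were 1383 of the 2132 probes at that level (9.01% of all tested probes). In the turning part no member passed either, with adjusted p from 0.316 to 0.974 by limma, against 1.56% of all tested probes called. Unadjusted p was under 0.05 there for Rb1, Rbl1 and E2f3, which is 33.3% of the family against 13.8% of all tested probes. These shares rest on very few probes and are no result about the family.

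**Figure D1:**
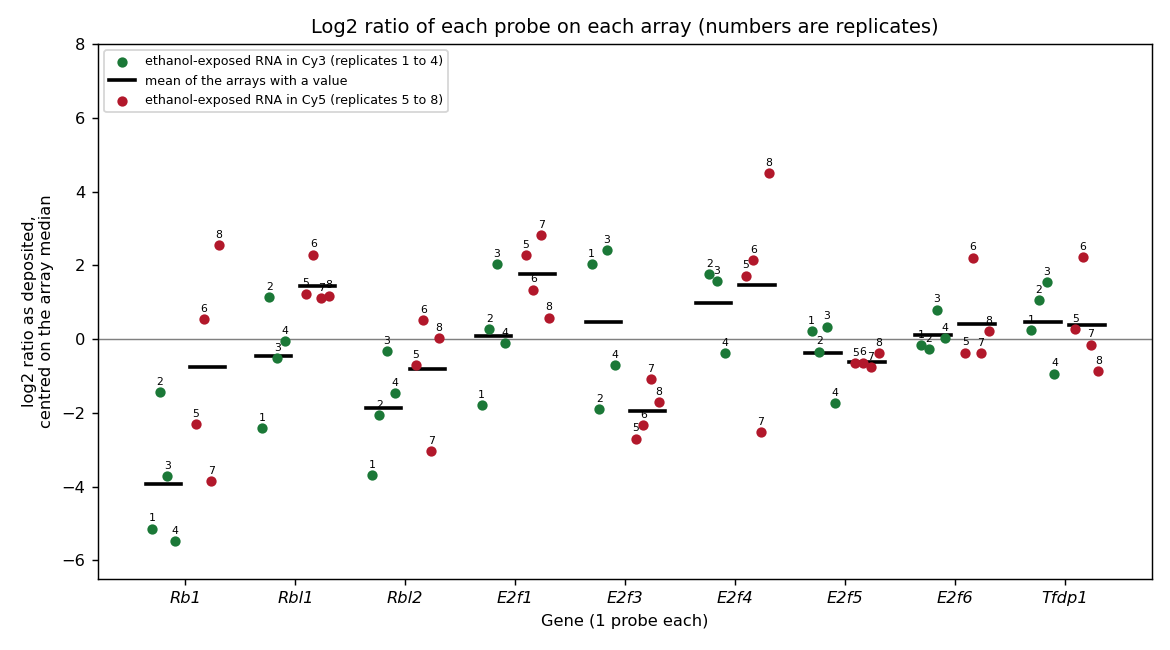
Centred log2 ratio of each of the 9 probes (horizontal axis) on every array (points, numbered by replicate), in green with exposed RNA in Cy3 and in red with exposed RNA in Cy5; black bars are the means of the arrays with a value. Rb1 spans -5.48 to 2.54, and the orientations overlap for every gene.

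Rb1 encodes the retinoblastoma protein, the best known brake on entry into DNA synthesis. With exposed RNA in Cy3 its probe read -5.14, -1.44, -3.71 and -5.48 on replicates 1 to 4. With exposed RNA in Cy5 it read -2.30, 0.55, -3.85 and 2.54 on replicates 5 to 8. All arrays of the first orientation and 2 of the second were below their median, while replicates 6 and 8 were above it, and the orientations overlapped. The means were -3.94 ± 1.84 (SD, n = 4) and -0.77 ± 2.86 (SD, n = 4). The shared part of -2.35 corresponds to 5.11-fold, with a 95% interval from -3.92 to -0.79, and 0.4% of all tested probes had a lower one. That rank takes no account of the SE, which was 0.70 for Rb1 against a median of 0.44 over all tested probes. The shared part did not pass in limma (unadjusted p = 0.00727, adjusted p = 0.231). The turning part was 1.59 ± 0.70 (95% interval 0.02 to 3.15; limma, adjusted p = 0.353). Replicate 8 weighed on both: without it the shared part was -2.90 and the turning part 1.04. Without replicate 7 they were -1.84 and 2.10. Leaving out the 3 arrays whose code ends in r (replicates 3, 4 and 8) gave -2.58 and 0.71, so the size of the turning part rested on those arrays. The lowest ratio that the table's rounding can express is 0.001, and no member had a value there.

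Rbl2 encodes a pocket protein that gathers E2F4 and the DREAM complex on cell cycle genes in resting cells. Its probe read -3.68, -2.06, -0.33 and -1.46 on replicates 1 to 4 and -0.70, 0.51, -3.04 and 0.03 on replicates 5 to 8. The lowest arrays were replicates 1 and 7, only replicates 6 and 8 were above 0, and the orientations overlapped. The orientation means were -1.88 ± 1.40 and -0.80 ± 1.57 (SD, n = 4 each). The shared part of -1.34 corresponds to 2.53-fold (95% interval -2.41 to -0.27) and did not pass in limma (unadjusted p = 0.0188, adjusted p = 0.268). The turning part was 0.54 ± 0.48 (limma, adjusted p = 0.684), and it was 0.24 without replicate 1, 0.32 without replicate 6 and 0.92 without replicate 7.

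Rbl1, the third pocket protein gene, is itself a classical E2F target and is made mainly in dividing cells. Its probe read -2.41, 1.14, -0.51 and -0.06 on replicates 1 to 4, and 1.23, 2.29, 1.10 and 1.18 on replicates 5 to 8. Exposed RNA in Cy5 thus went with a ratio above the median on 4 of 4 arrays, and exposed RNA in Cy3 on 1 of 4, replicate 2, whose value lay among those of the other orientation. The orientation means were -0.46 ± 1.47 and 1.45 ± 0.56 (SD, n = 4 each), giving a turning part of 0.96 ± 0.40 (limma, unadjusted p = 0.0369, adjusted p = 0.322). It leaned on replicate 1, without which it was 0.63. The shared part was 0.50 ± 0.40 (limma, adjusted p = 0.592), and it was 0.23 without replicate 2 and 0.82 without replicate 1.

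Rbl1 and Rbl2 are close relatives whose estimates lay on opposite sides of 0 in the shared part, though the 95% interval of Rbl1 (-0.39 to 1.38) took in 0. Their upstream sequences are shown side by side, with that of Tfdp1, the other measured member that holds the element found at Rbl1. Whether the sequences bear on the ratios was not tested. Letters are the 250 bases before the RefSeq transcript start in GRCm38.p6, read on the strand of the gene. Capitals mark matches to TTTCGCGC or TTTGGCGC, which are forms of the E2F element, and to TTTGAA, the core of the cell cycle homology region bound by DREAM. Both strands were searched in windows of 300 bases that run 50 bases past the start.
Rbl1, chr2:157204535-157204784, minus strand: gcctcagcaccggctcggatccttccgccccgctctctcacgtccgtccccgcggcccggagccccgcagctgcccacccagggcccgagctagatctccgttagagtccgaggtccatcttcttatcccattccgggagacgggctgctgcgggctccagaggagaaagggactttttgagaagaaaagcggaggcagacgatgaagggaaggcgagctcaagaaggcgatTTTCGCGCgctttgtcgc
Rbl2, chr8:91069807-91070056, plus strand: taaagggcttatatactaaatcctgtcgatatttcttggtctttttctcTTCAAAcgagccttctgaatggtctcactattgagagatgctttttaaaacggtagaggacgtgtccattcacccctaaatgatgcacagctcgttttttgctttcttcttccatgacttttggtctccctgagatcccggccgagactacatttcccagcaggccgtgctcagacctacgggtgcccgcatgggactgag
Tfdp1, chr8:13338501-13338750, plus strand: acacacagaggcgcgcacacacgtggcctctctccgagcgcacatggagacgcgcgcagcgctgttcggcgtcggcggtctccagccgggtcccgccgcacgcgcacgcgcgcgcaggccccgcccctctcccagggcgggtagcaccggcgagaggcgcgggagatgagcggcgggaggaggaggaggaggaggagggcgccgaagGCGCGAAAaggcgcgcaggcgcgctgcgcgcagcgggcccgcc
TTTCGCGC begins 18 bases before the start of Rbl1, and its reverse complement lies 43 bases before that of Tfdp1 (a second Tfdp1 window in the table overlaps the first and holds the same match). The window of Rbl2 holds only TTTGAA, reversed, 201 bases before the start. Of all 32851 windows in the table, 0.323% held TTTCGCGC, 0.514% TTTGGCGC and 17.9% TTTGAA. The table had windows for 7 of the 10 genes, Rbl1, Rbl2, E2f1, E2f2, E2f3, E2f6 and Tfdp1. An E2F element was also found in a window of E2f2, which has no probe, and TTTGAA in windows of E2f2 and E2f3. A match is a string of letters, and the arrays do not measure binding.

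E2f1 and E2f3 encode activating E2F factors, which switch on replication genes as cells enter S phase. The E2f1 probe read -1.80, 0.26, 2.04 and -0.12 on replicates 1 to 4 and 2.28, 1.34, 2.82 and 0.58 on replicates 5 to 8. It was above the median on all arrays with exposed RNA in Cy5 and on 2 of 4 in the other orientation, with overlap through replicate 3. Its shared part was 0.93 ± 0.44 (95% interval -0.05 to 1.91; limma, adjusted p = 0.381) and its turning part 0.83 ± 0.44 (95% interval -0.15 to 1.81; limma, adjusted p = 0.452). Single arrays moved both: the shared part was 0.60 without replicate 3, and the turning part 0.52 without replicate 1. Without the 3 r arrays together the turning part was 1.46.

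The E2f3 probe read 2.03, -1.89, 2.41 and -0.71 on replicates 1 to 4 and -2.70, -2.34, -1.09 and -1.72 on replicates 5 to 8. It was below the median on every array with exposed RNA in Cy5 and on 2 of 4 in the other orientation, so the orientations overlapped, and it turned the opposite way from E2f1. The orientation means were 0.46 ± 2.10 and -1.96 ± 0.71 (SD, n = 4 each). The turning part of -1.21 ± 0.50 had a 95% interval from -2.32 to -0.10 and did not pass in limma (unadjusted p = 0.0350, adjusted p = 0.316). The shared part was -0.75 ± 0.50 (limma, adjusted p = 0.519), and it was -0.36 without replicate 2.

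**Figure D2:**
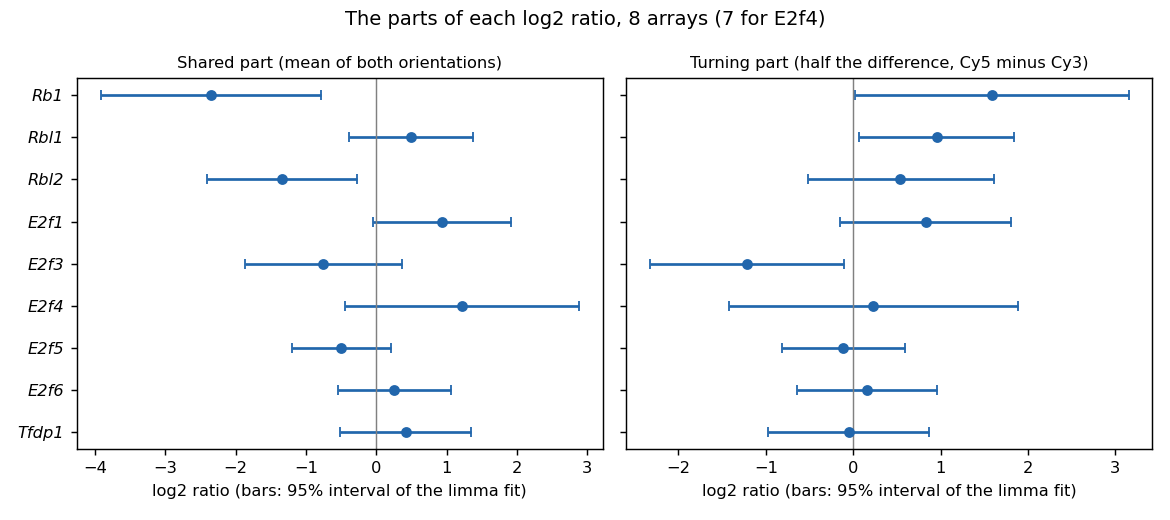
Shared part (left) and turning part (right) of each probe on the log2 axis, with points for the estimates and bars for the 95% intervals of the limma fit over 8 arrays (7 for E2f4). The intervals of Rb1 and Rbl2 leave out 0 on the left and those of Rb1, Rbl1 and E2f3 on the right, before any adjustment for the 15345 probes tested.

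E2f4 and E2f5 encode repressive E2F factors that work with the pocket proteins, and E2f6 a repressor that lacks their binding site and joins Polycomb-type complexes. The E2f4 ratio was not computable on replicate 1, and the fit used the other 7 arrays. It read 1.76, 1.58 and -0.39 on replicates 2 to 4 and 1.72, 2.13, -2.52 and 4.49 on replicates 5 to 8. Replicate 7 was far below and replicate 8 far above the rest. Its shared part was 1.22 ± 0.73 (limma, adjusted p = 0.482), moving to 1.88 without replicate 7 and 0.72 without replicate 8, and its turning part was 0.23 ± 0.73 (limma, adjusted p = 0.925), which took the other sign without replicate 8, at -0.27.

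The E2f5 probe stayed within a narrower band, from -1.74 to 0.34 over all arrays. With exposed RNA in Cy5 it lay between -0.76 and -0.38, the smallest SD of any member in an orientation, 0.16 (n = 4). Its shared part was -0.50 ± 0.32 and its turning part -0.12 ± 0.32 (limma, adjusted p = 0.505 and 0.912), and the shared part was -0.27 without replicate 4. The E2f6 probe lay between -0.39 and 0.80 on all arrays but replicate 6, where it read 2.21. The shared part of E2f6 was 0.26 ± 0.36 and its turning part 0.16 ± 0.36 (limma, adjusted p = 0.776 and 0.891), and both were negative without replicate 6, at -0.04 and -0.14. Tfdp1, which encodes the DP partner that E2F factors need to bind DNA, ranged from -0.94 to 2.22, with a shared part of 0.42 ± 0.42 and a turning part of -0.05 ± 0.42 (limma, adjusted p = 0.678 and 0.974). The shared part of Tfdp1 was 0.11 without replicate 6, 0.24 without replicate 3 and 0.66 without replicate 4. Before any adjustment, the 95% interval of the shared part ran from -1.20 to 0.21 for E2f5. It ran from -0.55 to 1.06 for E2f6 and from -0.51 to 1.35 for Tfdp1, and all of these intervals took in 0. How small a difference these arrays could detect was not established.

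Members were also set against each other on the same array, where the centring of the array cancels. These differences compare ratios, not levels, and are given without a test. Only 7 pairs were computed. Several set a member with a high shared part against one with a low shared part, so their signs follow in part from that choice. The share of all pairs of probes that keep 1 sign was not computed. E2f1 minus Rbl2 was 1.89, 2.31, 2.37 and 1.35 on replicates 1 to 4 and 2.98, 0.83, 5.86 and 0.55 on replicates 5 to 8, positive on 8 of 8 arrays with a mean of 2.27 ± 1.67 (SD). E2f4 minus Rbl2 was positive on 7 of 7 arrays (0.52 to 4.45), and Rbl1 minus Rbl2 on 7 of 8 (-0.18 to 4.14). E2f1 minus Rb1 had the largest mean of the 7 pairs computed, 3.28 ± 2.92 (SD, n = 8), and ran from -1.95 on replicate 8 to 6.67 on replicate 7. E2f1 and E2f3, both activators, differed by -3.83 on replicate 1 and by 4.99 on replicate 5, and Rbl2 minus Rb1 was positive on 5 of 8 arrays, so neither pair kept an order. The remaining pair, E2f1 minus Rbl1, was positive on 4 arrays and negative on 4, with a mean of 0.43 ± 1.28 (SD, n = 8). Of all tested probes 3.57% were on 1 side of 0 on all their arrays, and no member was. On 10.9% of tested probes the orientations did not overlap, and no member was among those either.

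**Figure D3:**
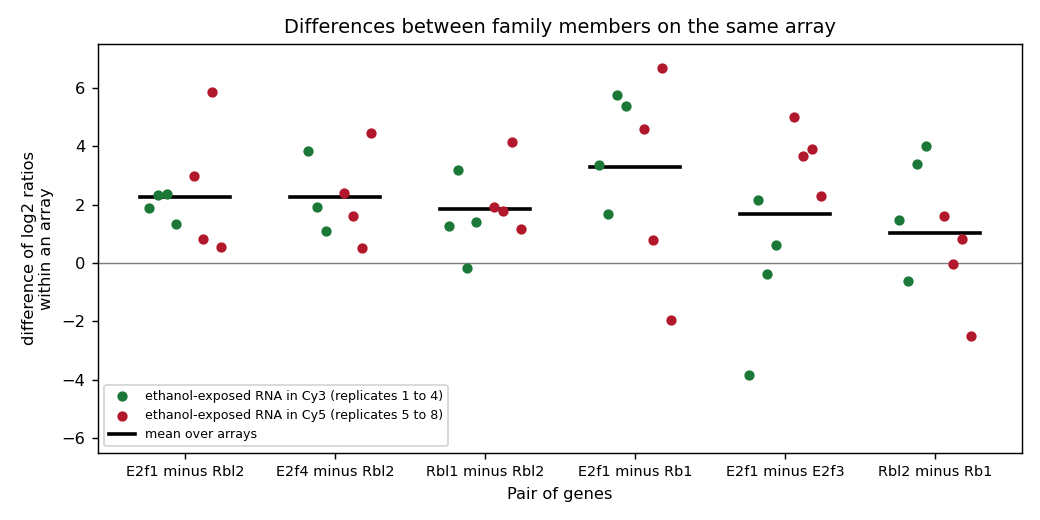
Difference between the log2 ratios of a pair of genes on the same array (vertical axis), for 6 pairs; points are arrays, green with exposed RNA in Cy3 and red with exposed RNA in Cy5, and black bars are means. Among these chosen pairs, E2f1 minus Rbl2 and E2f4 minus Rbl2 lie above 0 on every array with a value, and the others do not.

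The genes whose profile over the 8 arrays was most like that of Rb1, by Pearson correlation among 8680 named probes with complete values, were Agfg1 (r = 0.982), Tnfaip8 (r = 0.981) and H2-Eb2 (r = 0.969). Their shared parts were -1.91, -1.77 and -1.46. Among the family members with values on all 8 arrays, Rbl1 (r = 0.686) and Rbl2 (r = 0.668) came closest to Rb1. E2f4, with a value on only 7 arrays, was not compared, so it may be closer. For E2f3 the most alike were Emc4 (r = 0.951), Nudt21 (r = 0.948) and Ppp1r15b (r = 0.939), while Rbl1 ran against it (r = -0.870). The points are arrays that share their dyes and processing, and with so many probes searched over so few arrays such values describe likeness only.

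Of 99 genes in 6 fixed lists around the family, 80 could be tested, 1 probe a gene. No list gene passed in the shared part with limma, and 28 had an unadjusted p under 0.05, 21 of them positive and 7 negative, which is 35.0% against 13.9% of all tested probes. Several of these genes are cell cycle genes already known from these arrays to lie on the positive side, so this count is not independent evidence. The kinases that act on RB proteins and their inhibitors had a median shared part of 0.61, with 10 of 15 positive, against -0.06 over all tested probes. Cdk2, the kinase that completes RB phosphorylation with cyclins E and A, read 1.34 ± 0.31 and was positive on 8 of 8 arrays (limma, adjusted p = 0.171). Cdkn2d, an inhibitor of the cyclin D kinases, read 1.25 ± 0.36 and was positive on 7 of 8 (limma, adjusted p = 0.228). Cdk6, one of those kinases, lay on the other side at -0.84 ± 0.33 (n = 7; limma, adjusted p = 0.313). The turning part of Cdk6 was 0.69 ± 0.33 (limma, adjusted p = 0.393). Ccnd2, a cyclin D gene, had a turning part of 0.66 ± 0.51 (limma, adjusted p = 0.628). A second Ccnd2 probe read -0.14 ± 0.57 in the turning part (limma, adjusted p = 0.947). The signs of the Ccnd2 probes differed there, but neither value was far from 0 for its SE. In the shared part both were positive, at 0.45 ± 0.51 and 1.13 ± 0.57.

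Corepressors and partners of RB, DREAM and E2F6 had a median shared part of 0.23 with 10 of 17 positive. Their smallest p-values were on the negative side. The chromatin remodelling ATPase gene Smarca2 read -1.49 ± 0.39, below 0 on 8 of 8 arrays, but a second Smarca2 probe read 0.42 ± 0.30. Mga, which encodes the MAX-binding scaffold of the E2F6 complex, read -2.19 ± 0.59 and was below 0 on 6 of 6 arrays with a value (limma, adjusted p = 0.228). In the turning part the Polycomb partner Rybp read 2.42 ± 0.58 (n = 7; limma, adjusted p = 0.0917), against -0.07 ± 0.60 on its second probe, and the histone-binding RB partner Rbbp7 read 0.90 ± 0.34 (limma, adjusted p = 0.268). Tfdp2, a second DP gene, was the only measured gene of the E2F and DP genes outside the family, since neither E2f7 nor E2f8 had a named probe, and read 0.19 ± 0.62 in the shared part.

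E2F target genes of replication and nucleotide supply had a median shared part of 0.33, with 18 of 26 positive. They included the helicase subunits Mcm3 at 1.76 ± 0.43 and Mcm5 at 1.60 ± 0.43, both above 0 on 8 of 8 arrays (limma, adjusted p = 0.180 and 0.206). The other subunits of that helicase read 1.36 ± 0.54 (Mcm2), -0.20 ± 0.46 (Mcm4), 0.35 ± 0.54 (Mcm6) and -0.18 ± 0.40 (Mcm7, n = 7). Target genes of mitosis had a median of 0.08, with 8 of 15 positive. The centromeric histone gene Cenpa read 2.01 ± 0.48 and the spindle kinase gene Aurka 2.52 ± 0.66, each above 0 on 8 of 8 arrays (limma, adjusted p = 0.179 and 0.206). Plk1, another mitotic kinase, read -1.31 ± 0.39 on the probe used and 1.51 ± 0.46 on its second probe. The turning parts of these Plk1 probes were 0.78 ± 0.39 and -0.31 ± 0.46 (limma, adjusted p = 0.419 and 0.822). By limma 5 positive and 2 negative genes of the mitosis list had an unadjusted p under 0.05 in the shared part. The negative ones were Plk1 and Ttk, the latter at -2.17 ± 0.70 (n = 7). Target genes of cell death had a median of -0.61, with 1 of 6 positive, the BH3-only gene Bbc3 at 1.02 ± 0.40, and Trp53inp1, a proapoptotic p53 target, at -0.99 ± 0.46 (limma, adjusted p = 0.312 and 0.381). The array medians of the replication targets ranged from -0.33 on replicate 4 to 1.74 on replicate 3, and those of the mitosis targets from -1.05 to 2.41 on the same arrays. Replicate 4 was also the array with the fewest positive family members, 1 of 9, whereas replicate 6 had 7 of 9. Family and targets did not run together on every array. Replicate 7 had 2 of 9 positive members, with medians of 0.86 for replication targets and -0.72 for mitosis targets.

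In the turning part 3 of the 80 list genes passed with limma, 3.75% against 1.56% of all tested probes. That share rests on 3 genes. At an unadjusted p under 0.05 by limma there were 9, or 11.2%, against 13.8% of all tested probes. Cdc45, which encodes a core component of the replicative helicase, read -5.01 ± 0.72 (adjusted p = 0.0054 by limma). Its ratios lay between 6.38 and 8.20 with exposed RNA in Cy3 and between -6.29 and 1.24 with exposed RNA in Cy5. Cdc20, the activator of the anaphase-promoting complex, read -3.01 ± 0.42 (limma, adjusted p = 0.00412), and Pmaip1, a BH3-only gene, 1.90 ± 0.37 (limma, adjusted p = 0.0359). The thymidylate synthase gene Tyms, at 1.42 ± 0.35 (limma, adjusted p = 0.0864), did not pass. None of the 3 passed without the r arrays, with 5 arrays left (adjusted p 0.123 to 0.180 by limma), where their turning parts were -4.29, -3.11 and 2.40, and Pmaip1 passed in 9 of 18 alternatives. The median turning parts were 0.17 for RB kinases and inhibitors, -0.13 for corepressors and partners, 0.18 for replication targets, -0.07 for mitosis targets and 0.42 for cell death targets, against 0.11 over all tested probes.

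**Figure D4:**
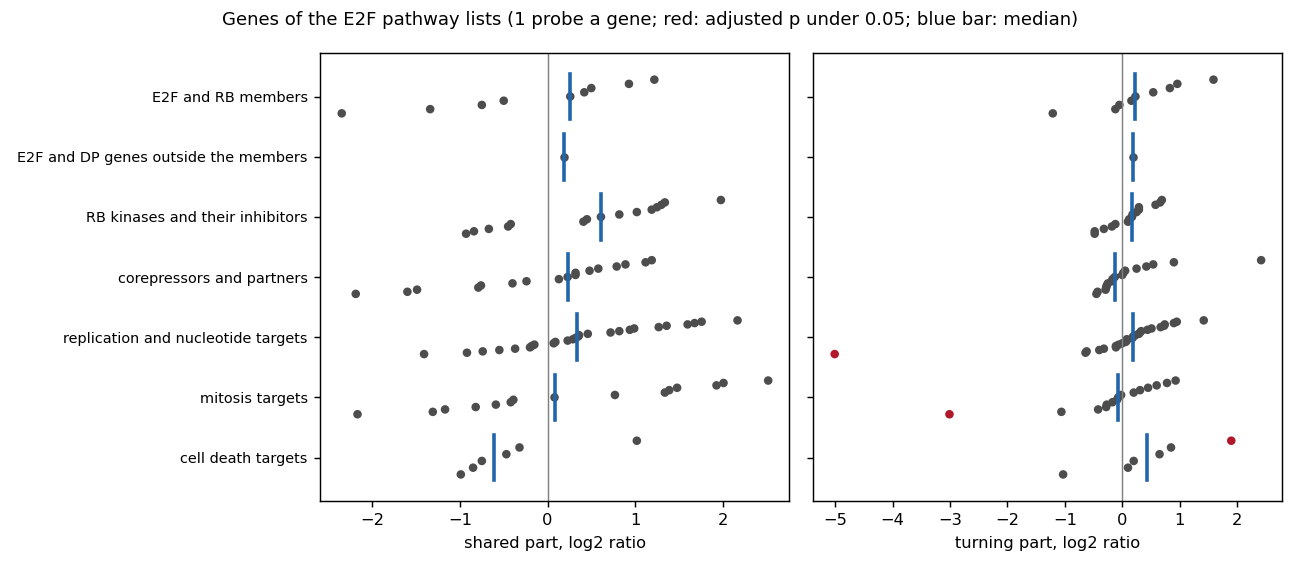
Shared part (left) and turning part (right) on the log2 axis of each family member and each list gene (points, 1 probe a gene, stacked by value), with blue bars for medians and red points for genes past an adjusted p of 0.05. No point is red on the left, and Cdc45, Cdc20 and Pmaip1 are red on the right.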

How the data were processed

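The authors deposited 1 table of log2 ratios, 1 column per array, with no intensities; what scanner was used, and how background and dyes were corrected, is not given in the sources used here. Ratios had been rounded to 3 decimals and then shifted, on the log2 scale, by 1 constant per array. Exact zeros (2565 to 5200 an array) and each array's single highest value (108 to 464 probes), which equals that constant plus the log2 of 100000, were taken as missing. Medians of the remaining values, -0.435 to 0.516, were subtracted. Names come from the annotation of the platform, with 16635 of 21582 probes carrying 1 symbol. Of these probes, 15957 were matched by Entrez number to a RefSeq symbol, which was used for genes outside the family. Neither files nor labels name a genome build for the probes.

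Each probe with 3 or more values in both orientations was fitted with limma 3.58.1 (R 4.3.3), with a shared and a turning coefficient. P-values were adjusted by Benjamini-Hochberg over 15345 probes, threshold 0.05, and SEs are those of the moderated fit. The fit was run on simulated data with independent normal noise and known changes. That run checks the sizes the fit returns, not how it behaves with noise that arrays share. It also counted how many changed probes were called, which is not reported here. The members and lists were chosen with earlier results of these data known. Named genes are all member probes, list genes that passed, otherwise the 2 genes of each list with the smallest unadjusted p in each part, and the 3 genes most like 2 members. Where a list gene had several probes, that with values on more arrays was used, and otherwise the first by name. Alternatives were other centring, scaling, missing-value and filter rules, a robust fit, the array code number as a random block, and leaving out arrays. The number of arrays limits the precision.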

Additional observations from a re-analysis of the deposited data

Results flagged for a closer look

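Among 62 sets of 4 arrays examined (members, named list genes and list medians, in each orientation), 2 had an array far from the other 3 by Dixon's criterion, which chance meets in about 1 of 20. For Rbl1 with exposed RNA in Cy5, replicate 6 read 2.29 against 1.10 to 1.23. For Tyms in the same orientation, replicate 5 read 1.59 against 0.83 to 0.94.

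Of the members and the named list genes, 4 list genes and no member had a turning part that passed, or all arrays of an orientation on 1 side of 0 and all of the other on the opposite side. The turning parts of Cdc45 at -5.01, Cdc20 at -3.01 and Pmaip1 at 1.90 passed in the limma fit. Cdc20 lay between 1.59 and 4.83 with exposed RNA in Cy3 and between -3.59 and -1.70 with exposed RNA in Cy5, and Pmaip1 between -4.08 and -1.01 and between 0.55 and 1.92. Tyms, with a turning part of 1.42, lay below 0 on every array of the first orientation (-3.24 to -0.64) and above 0 on every array of the second, but did not pass (limma, adjusted p = 0.0864).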

How the results depend on the processing

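No member probe passed in either part under any of the 18 alternatives. Of 314 member values, 302 kept their sign and 12 did not. With the values as deposited the turning part was 0.20 for E2f5 and 0.26 for Tfdp1, it was 0.06 for Tfdp1 without the r arrays, and it was -0.00 for E2f6 in the robust fit. Leaving out single arrays, the shared part of E2f6 ran from -0.04 to 0.39, and the turning part from -0.27 to 0.90 for E2f4, from -0.34 to 0.01 for E2f5, from -0.14 to 0.29 for E2f6 and from -0.36 to 0.15 for Tfdp1. Over all alternatives the shared part of Rb1 stayed between -2.90 and -1.84 (limma, adjusted p 0.107 to 0.41) and that of Rbl2 between -1.97 and -0.97 (limma, adjusted p 0.171 to 0.43). E2f4 had too few values for a fit in 5 alternatives. Over all probes the shared part called 208 in the robust fit and 1 with the highest values kept, against 0. The turning part called 748 in the robust fit, 417 with the values as deposited and 73 without the r arrays, against 239, and 152 to 214 without single arrays. Its calls were 312 positive of 417 as deposited, against 118 of 239. Of the list genes 7 passed there in the robust fit and 0 without the r arrays, against 3. The causes were not tested. As deposited, the turning parts of all probes had a median of 0.42, against 0.11 after centring. Taking arrays of the same code number as a random block, with an estimated correlation of 0.00891, changed no member's call. The 3 pairs of arrays with a shared code number showed little common deviation from their orientation means (correlations 0.04, 0.016 and -0.035 over 10486 probes). The arrays of each pair lie in opposite orientations, so these correlations cannot tell whether they share a culture.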
